A study of Homo sapiens with 9 samples.

Results

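Levels of 8 genes of cholesterol synthesis and its control were followed across the libraries of a CHAF1B knockdown: SREBF2, INSIG1, HMGCS1, IDI1, FDFT1, SQLE, MSMO1 and DHCR7. They were taken from a list of cholesterol synthesis genes and targets of SREBP2 by matching their gene identifiers to GENCODE release 29. All 8 were among the 26186 genes of the count table, and all 8 passed the filter on low counts that left 16235 genes for testing. The cells were MCF10A, a non-tumorigenic line derived from human breast epithelium, and the study asked how their transcription changes when the histone chaperone CAF-1 is suppressed. CHAF1B encodes a subunit of CAF-1, which places new histones on replicating DNA.

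There were 3 groups of 3 libraries each. The control cells carried a hairpin against green fluorescent protein (shGFP), and the knockdown cells carried 1 of a pair of different hairpins against CHAF1B (shCHAF1B-1 and shCHAF1B-2), all in the lentiviral vector pLKO.1. In every group, controls included, puromycin at 2 µg/ml was added 24 h after transduction, and RNA was taken on day 3. The medium of all groups held horse serum at 5%, which contains lipoproteins. It also held EGF at 20 ng/ml, hydrocortisone at 0.5 mg/ml, cholera toxin at 100 ng/ml and insulin at 10 µg/ml. The cells were pools of transduced cells of a single line. The labels do not say that replicates came from separate cultures, so p-values measure the spread between these libraries, which may be technical.

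Cells make cholesterol from acetyl-CoA by the mevalonate pathway, through squalene and lanosterol. SREBP2, encoded by SREBF2, is held in the membrane of the endoplasmic reticulum with its escort SCAP, which INSIG proteins retain there while sterols are plentiful. When sterols run low, SCAP carries SREBP2 to the Golgi, a pair of proteases releases its transcription factor domain, and genes of sterol synthesis and uptake are activated, INSIG1 and SREBF2 itself among them. Transcript levels do not show how much of the protein has been cleaved.

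The upstream sequences of these genes are shown because SREBP2 acts through sterol regulatory elements near the start sites of its targets, often beside CCAAT boxes. RefSeq promoter windows (GRCh38.p14) were found for 6 of the 8 genes by symbol, 10 windows in all. No window was found by symbol for FDFT1 or SQLE. In the 250 bases before each start, both strands were searched for TCACNCCAC, a spelling of the sterol regulatory element, for CCAAT and for the GC box GGGCGG. Apart from CCAAT matches on opposite strands of 1 IDI1 window, no match of TCACNCCAC or CCAAT overlapped another. TCACNCCAC was found in 1 of the 10 windows, that of SREBF2, with its first base at position -133 from the start, and in 0.883% of all 35116 windows of that length. CCAAT lay in 7 of the 10 windows, and in 32% of all windows. GGGCGG lay in 9 of the 10, and in 42.6% of all windows. Windows of the same gene are not independent of one another. A match describes letters and not a bound site, and a missing match says only that those letters are not in the window. The sequences below run 5′ to 3′ on the strand of the gene, from the first of the 250 bases. They stop before the start of the gene in GENCODE, which lies upstream of the RefSeq start here. Positions count from the RefSeq start, so some matches lie beyond the printed sequences. Capitals mark TCACNCCAC and CCAAT, or ATTGG where CCAAT is on the other strand. The first is SREBF2 (chr22:41832855-41833078, plus strand), the gene of the factor. INSIG1 (chr7:155297628-155297775, plus strand) and MSMO1 (chr4:165327419-165327622, plus strand) had the largest changes of the 8. HMGCS1 (chr5:43313513-43313662, minus strand) is set beside them as a gene whose level did not pass the test.
SREBF2: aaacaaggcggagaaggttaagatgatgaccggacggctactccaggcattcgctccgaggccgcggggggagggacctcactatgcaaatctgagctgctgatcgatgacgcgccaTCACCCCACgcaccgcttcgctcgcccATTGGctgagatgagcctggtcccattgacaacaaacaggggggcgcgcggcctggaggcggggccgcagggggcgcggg
INSIG1: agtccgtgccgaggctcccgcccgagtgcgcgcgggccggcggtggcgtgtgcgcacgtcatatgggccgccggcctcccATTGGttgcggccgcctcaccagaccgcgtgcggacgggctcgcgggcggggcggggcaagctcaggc
MSMO1: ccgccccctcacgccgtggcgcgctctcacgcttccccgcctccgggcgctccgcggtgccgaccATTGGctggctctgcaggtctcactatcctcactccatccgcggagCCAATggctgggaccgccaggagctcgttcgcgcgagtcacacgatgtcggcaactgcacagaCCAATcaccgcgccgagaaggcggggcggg
HMGCS1: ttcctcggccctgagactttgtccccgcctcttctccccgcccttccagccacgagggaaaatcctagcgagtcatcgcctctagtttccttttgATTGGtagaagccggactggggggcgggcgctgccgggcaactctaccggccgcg

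MSMO1 held 3 CCAAT matches in the printed stretch, with first bases at -185, -139 and -76, and a further one at -34. SREBF2 had a match at -106, downstream of its TCACNCCAC. INSIG1 had a single match, at -170. HMGCS1 had matches at -155 and, beyond the printed stretch, at -100. All 6 genes with windows held CCAAT, among them genes that rose, genes that did not pass the test, and DHCR7, which fell.

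The library totals lay between 24339914 and 31819468 counts, and the 8 genes had between 1923 and 16316 counts in any library. CHAF1B was at 35.2, 41.0 and 36.8 CPM in shGFP and at 2.56 to 3.89 CPM in the 6 knockdown libraries. All 10 mammary epithelial markers were detected in every library, with a summed level of 11400 to 13500 CPM. Single markers moved in both directions: 4 rose and 5 fell under shCHAF1B-1, and 4 rose and 4 fell under shCHAF1B-2. KRT17, a basal keratin, had log2 fold changes of -1.14 and -1.19, and LAMB3, a laminin chain, of 1.47 and 1.36. Markers of B lymphocytes summed to 228 CPM in shCHAF1B-1 replicate 3 and to 1.86 to 3.89 CPM in the other 8 libraries, with 2664 counts of MS4A1 there and 3 to 14 elsewhere. Of these 10 markers only CR2 was not raised there, with 9 counts against 12 to 48 elsewhere. T lymphocyte and general leukocyte markers, of which 4 of 8 were in the table, summed to 35.2 CPM in that library and to 0.79 to 1.05 CPM in the others. CD3D, CD3E, CD2 and CD8A were not in the table. In that library PTPRC had 794 counts and LCK 83, against 2 to 7 and 0 to 2 elsewhere. CD7 and CD4 were not raised there, with 14 and 2 counts against 13 to 22 and 1 to 4 elsewhere. Because this library stood apart, results of shCHAF1B-1 below are also given without it. Of 8 fibroblast and endothelial markers 5 were in the table, and they summed to 10.2 to 10.9 CPM in shGFP and 21.7 to 23.7 CPM in the knockdowns, nearly all from COL1A1 and PECAM1. LUM was at 0 to 4 counts and VWF at 0 to 5 counts in every library. The part of these cells or markers in the results below was not tested.

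Under both hairpins, INSIG1, MSMO1, SQLE and IDI1 rose and DHCR7 fell, while SREBF2 and HMGCS1 did not pass the test. FDFT1 fell under shCHAF1B-1 and did not pass under shCHAF1B-2. A gene passed at an adjusted p under 0.05 in edgeR's quasi-likelihood test with Benjamini-Hochberg adjustment over the 16235 genes. Thus 4 of the 8 rose and 2 fell under shCHAF1B-1, where 27.9% of all tested genes rose and 25.2% fell. Under shCHAF1B-2 4 rose and 1 fell, where 26.7% of all tested genes rose and 24.6% fell. In either direction 6 and 5 of the 8 passed, against 53.2% and 51.3% of all tested genes, so passing the test was common among all genes. INSIG1 and MSMO1 were the 2 of the 8 that rose at least 2-fold, as did 6.34% of all tested genes under shCHAF1B-1 and 5.53% under shCHAF1B-2. The median log2 fold change of the 8 was 0.151 under shCHAF1B-1 and 0.216 under shCHAF1B-2, and over all tested genes it was -0.003 and -0.014. Without shCHAF1B-1 replicate 3, 4 of the 8 rose and 1 fell under each hairpin, FDFT1 being the call lost. Both comparisons use the same shGFP libraries, so they are not independent of each other. In bulk RNA, fewer cells that express a gene and less RNA per cell cannot be told apart.

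**Figure D1:**
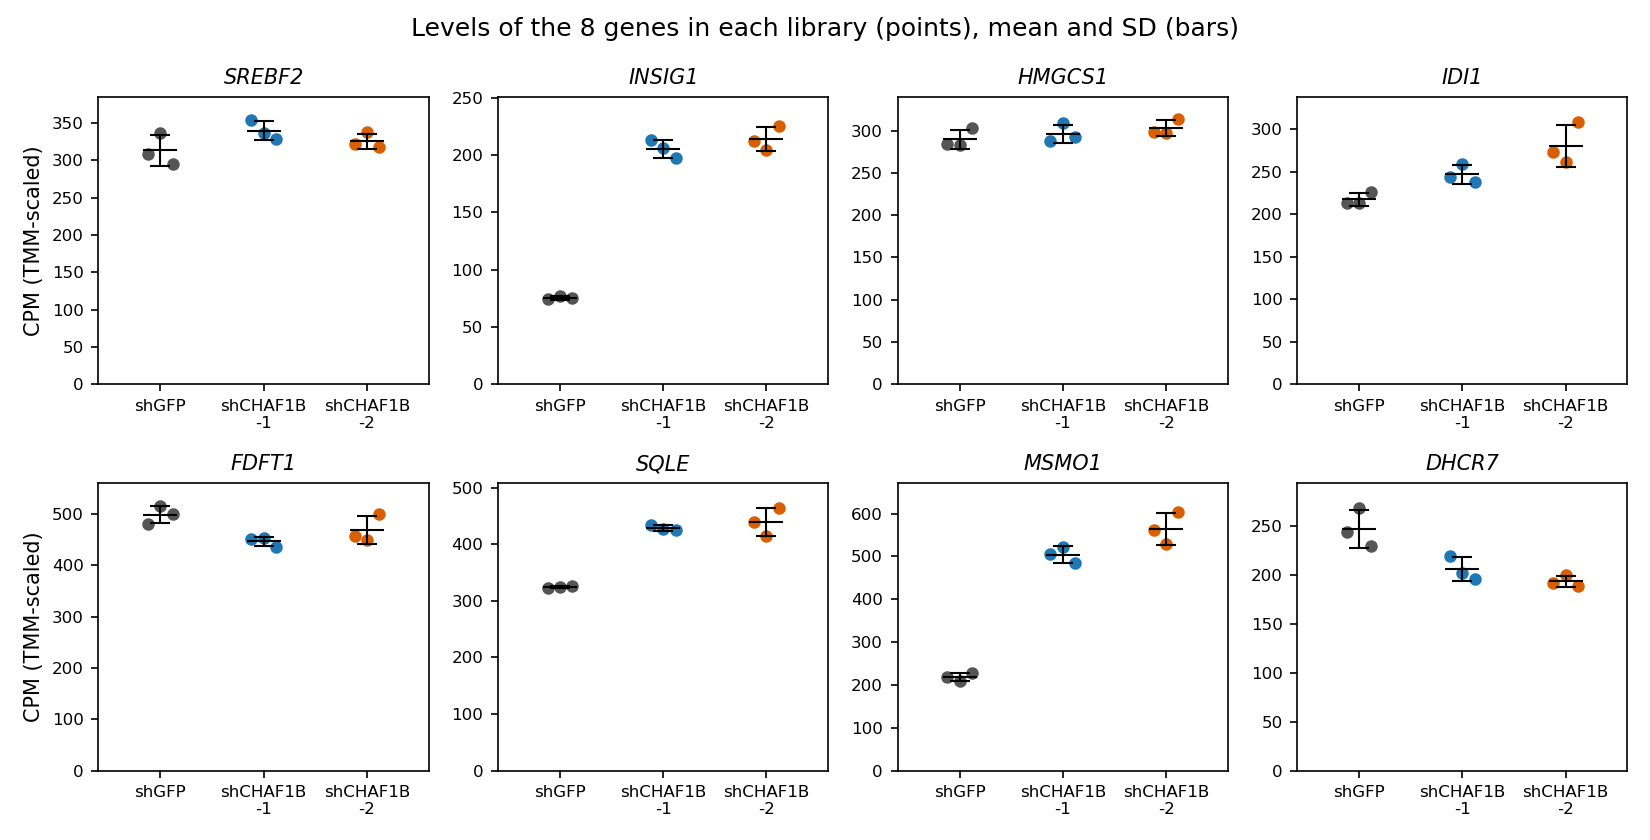
TMM-scaled CPM of each of the 8 genes in the 9 libraries (points; vertical axis from 0) by hairpin group, with the mean and SD of 3 libraries as bars. INSIG1 lies at 74.1 to 76.8 CPM in shGFP and at 197 to 225 CPM in the knockdown libraries, MSMO1 at 210 to 228 and 484 to 603 CPM, and the HMGCS1 and SREBF2 groups overlap.

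SREBF2 (ENSG00000198911.11, chr22:41833079-41907308, plus strand, GRCh38) encodes SREBP2, the factor that drives the pathway. Its level was 309, 336 and 295 CPM in shGFP, 354, 337 and 329 CPM in shCHAF1B-1, and 321, 337 and 319 CPM in shCHAF1B-2. The groups overlapped, shGFP replicate 2 lying among the knockdown libraries. The log2 fold change was 0.12 (SE 0.0536, adjusted p = 0.084) under shCHAF1B-1 and 0.06 (95% interval -0.06 to 0.17, adjusted p = 0.42) under shCHAF1B-2. Without shGFP replicate 2 the shCHAF1B-1 difference passed, at 0.17 (adjusted p = 0.019), and without shCHAF1B-1 replicate 3 it was 0.14 (adjusted p = 0.071). An antisense gene, SREBF2-AS1, shares 3.71% of the exon bases of SREBF2. It had 57 to 86 counts per library, against at least 7576 for SREBF2. The microRNA gene MIR33A lies in an intron of SREBF2 and is not read out here.

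INSIG1 (ENSG00000186480.12, chr7:155297776-155310235, plus strand) encodes the retention protein that keeps SCAP and SREBP2 in the endoplasmic reticulum, and it is itself a target of SREBP2. It was at 74.1, 76.8 and 75.01 CPM in shGFP. It reached 213, 206 and 197 CPM in shCHAF1B-1 and 212, 205 and 225 CPM in shCHAF1B-2. All 6 knockdown libraries were far above all 3 controls, and the spread within each group was small beside the gap. The rise was 2.73-fold under shCHAF1B-1, a log2 fold change of 1.45 (SE 0.0494, 95% interval 1.34 to 1.55, adjusted p = 4.7e-11). It was 2.84-fold under shCHAF1B-2, at 1.51 (SE 0.0495, 95% interval 1.40 to 1.61, adjusted p = 3.9e-11). The first value was 1.48 (adjusted p = 6.5e-11) with shCHAF1B-1 replicate 3 left out. Of all tested genes 3.72% had a higher log2 fold change under shCHAF1B-1 and 2.83% under shCHAF1B-2.

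HMGCS1 (ENSG00000112972.14, chr5:43289395-43313512, minus strand) encodes the cytosolic HMG-CoA synthase, an early enzyme of the mevalonate pathway. It was at 284, 283 and 303 CPM in shGFP, 288, 308 and 292 CPM in shCHAF1B-1 and 298, 297 and 313 CPM in shCHAF1B-2. The 3 groups overlapped. The log2 fold changes were 0.03 (95% interval -0.07 to 0.13, adjusted p = 0.61) and 0.06 (95% interval -0.04 to 0.17, adjusted p = 0.28). The first was 0.04 (adjusted p = 0.56) without shCHAF1B-1 replicate 3. The antisense gene AC114947.2 shares 15% of the exon bases of HMGCS1 and had 5 to 20 counts per library.

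IDI1 (ENSG00000067064.11, chr10:1039152-1049170, minus strand) encodes the isomerase that interconverts the activated isoprene units from which all later intermediates are built. Its level was 213, 213 and 226 CPM in shGFP, 244, 259 and 238 CPM in shCHAF1B-1 and 273, 261 and 309 CPM in shCHAF1B-2. The 3 groups did not overlap, though the difference between the hairpins did not pass (adjusted p = 0.42). It rose by a log2 fold change of 0.19 under shCHAF1B-1 (SE 0.061, adjusted p = 0.02) and of 0.37 under shCHAF1B-2 (SE 0.061, adjusted p = 0.00019). The first call rested on single libraries: it was lost without shGFP replicate 1 (adjusted p = 0.075), shGFP replicate 2 (adjusted p = 0.067) or shCHAF1B-1 replicate 2 (adjusted p = 0.093), with log2 fold changes of 0.15 to 0.17. It was 0.21 (adjusted p = 0.018) without shCHAF1B-1 replicate 3, and so passed. The antisense gene IDI2-AS1 shares 14.8% of the exon bases and had 1 to 5 counts.

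FDFT1 (ENSG00000079459.12, chr8:11795573-11839309, plus strand) encodes squalene synthase, the first enzyme committed to sterols. It was at 482, 516 and 500 CPM in shGFP, 451, 454 and 437 CPM in shCHAF1B-1 and 458, 449 and 500 CPM in shCHAF1B-2. The shCHAF1B-1 libraries were all below shGFP, while shCHAF1B-2 replicate 3 lay among the controls. It fell by 0.16 on the log2 scale under shCHAF1B-1 (SE 0.05, adjusted p = 0.017). Under shCHAF1B-2 the log2 fold change was -0.09 (95% interval -0.20 to 0.02, adjusted p = 0.15). The call under shCHAF1B-1 was lost without replicate 3 of that group, the library with lymphocyte markers (-0.14, adjusted p = 0.066), and without shGFP replicate 2 (-0.13, adjusted p = 0.067). Under shCHAF1B-2 the fall passed without replicate 3 of that group (-0.14, adjusted p = 0.023) and with upper-quartile scaling (-0.12, adjusted p = 0.045). The lincRNA gene AC069185.1 on the other strand shares 4.17% of the exon bases and had 1 to 3 counts.

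SQLE (ENSG00000104549.11, chr8:124998497-125022283, plus strand) encodes squalene epoxidase, the second rate-limiting enzyme of the pathway. Its level was 323, 324 and 326 CPM in shGFP, 434, 428 and 425 CPM in shCHAF1B-1 and 439, 415 and 464 CPM in shCHAF1B-2. Every knockdown library lay above every control, and the controls lay close together. It rose 1.32-fold under shCHAF1B-1 (log2 0.40, SE 0.0466, adjusted p = 7.3e-06) and 1.36-fold under shCHAF1B-2 (log2 0.44, SE 0.0467, adjusted p = 3.7e-06). The rise under shCHAF1B-1 was 0.41 (adjusted p = 3e-05) without its replicate 3.

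MSMO1 (ENSG00000052802.12, chr4:165327623-165343160, plus strand) encodes the methylsterol oxidase that starts the removal of the methyl groups at carbon C4 of the sterol ring. It was at 218, 210 and 228 CPM in shGFP. It reached 505, 523 and 484 CPM in shCHAF1B-1 and 561, 528 and 603 CPM in shCHAF1B-2. All 6 knockdown libraries were above the controls. The shCHAF1B-2 libraries were all above those of shCHAF1B-1, a difference that did not pass (adjusted p = 0.42). The rise was 2.31-fold, a log2 fold change of 1.21 (SE 0.0561, 95% interval 1.09 to 1.33, adjusted p = 1e-09), under shCHAF1B-1. It was 2.58-fold, at 1.37 (SE 0.0563, 95% interval 1.25 to 1.49, adjusted p = 3.4e-10), under shCHAF1B-2. Leaving out shCHAF1B-1 replicate 3 gave 1.24 (adjusted p = 1.5e-09) for the first. Higher log2 fold changes were found in 5.03% of all tested genes under shCHAF1B-1 and in 3.39% under shCHAF1B-2.

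DHCR7 (ENSG00000172893.15, chr11:71428193-71452868, minus strand) encodes the reductase that turns 7-dehydrocholesterol into cholesterol, the last step of one branch of the pathway. It was at 243, 268 and 229 CPM in shGFP, 220, 202 and 195 CPM in shCHAF1B-1 and 192, 200 and 189 CPM in shCHAF1B-2. All 6 knockdown libraries lay below the controls, the opposite direction to MSMO1 earlier in the same arm of the pathway. It fell by 0.26 on the log2 scale under shCHAF1B-1 (SE 0.0611, adjusted p = 0.0025) and by 0.35 under shCHAF1B-2 (SE 0.0613, adjusted p = 0.00029). Leaving out shCHAF1B-1 replicate 3 gave -0.22 (adjusted p = 0.013) for the first. The antisense gene AP002387.1 overlaps DHCR7 but shares 0 exon bases with it.

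The difference between the hairpins was tested in the same fit, as shCHAF1B-2 minus shCHAF1B-1. None of the 8 genes passed, and 0 genes, 0% of all tested, passed in edgeR, with 1800 at an unadjusted p under 0.05. DESeq2 called 1 gene and limma-voom 0 in this comparison. For IDI1 the log2 difference was 0.18 (95% interval 0.05 to 0.32, adjusted p = 0.42) and for MSMO1 0.16 (95% interval 0.04 to 0.28, adjusted p = 0.42). Their unadjusted intervals lay above 0, and both were among the 1800 genes at an unadjusted p under 0.05. Neither passed after adjustment. For DHCR7 it was -0.09 (95% interval -0.22 to 0.04, adjusted p = 0.58). For INSIG1 it was 0.06 (95% interval -0.04 to 0.16, adjusted p = 0.62), for SQLE 0.04 (adjusted p = 0.78) and for FDFT1 0.07 (adjusted p = 0.59). SREBF2, at -0.06 (adjusted p = 0.66), and HMGCS1, at 0.03 (adjusted p = 0.80), also did not pass.

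In each group, single libraries were highest or lowest for several genes at once. In shCHAF1B-2, replicate 3 was the highest of its group for 6 of the 8 genes (INSIG1, HMGCS1, IDI1, FDFT1, SQLE and MSMO1) and the lowest for SREBF2 and DHCR7. Replicate 2 of the same group was the reverse, lowest for the same 6 and highest for the other two. In shCHAF1B-1, replicate 3, the library with lymphocyte markers, was lowest for 7 of the 8, HMGCS1 being the exception. In shGFP, replicate 2 was highest for 4 genes (SREBF2, INSIG1, FDFT1 and DHCR7) and lowest for 3 (HMGCS1, IDI1 and MSMO1). Replicate 3 of shGFP was highest for the other 4 and lowest for 2, SREBF2 and DHCR7. As in shCHAF1B-2, SREBF2 and DHCR7 thus lay at the opposite end to HMGCS1, IDI1 and MSMO1 in these libraries.

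Levels were compared between genes per kilobase of merged exon. In shGFP, FDFT1 was highest at 95.9 ± 3.24 CPM per kb (mean ± SD, n = 3), followed by MSMO1 at 75.5 and SQLE at 75.3, which overlapped. HMGCS1 at 61.6 and DHCR7 at 59.4 overlapped as well, then came IDI1 at 50.04, SREBF2 at 41.5 and INSIG1, the lowest, at 20.6 ± 0.374. Under shCHAF1B-1 the order was led by MSMO1 at 174 ± 6.80 CPM per kb, then SQLE at 99.6, FDFT1 at 86.0 and HMGCS1 at 63.0. IDI1 at 56.9 and INSIG1 at 56.3 overlapped, with DHCR7 at 49.5 and SREBF2 at 45.0 below them. Under shCHAF1B-2 MSMO1 stood at 195 ± 12.9, SQLE at 102 and FDFT1 at 90.2. IDI1 at 64.6 and HMGCS1 at 64.4 overlapped, and INSIG1 at 58.7, DHCR7 at 46.5 and SREBF2 at 43.1 followed. So INSIG1 moved from last place to above DHCR7 and SREBF2, and MSMO1 moved past FDFT1 to first.

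**Figure D2:**
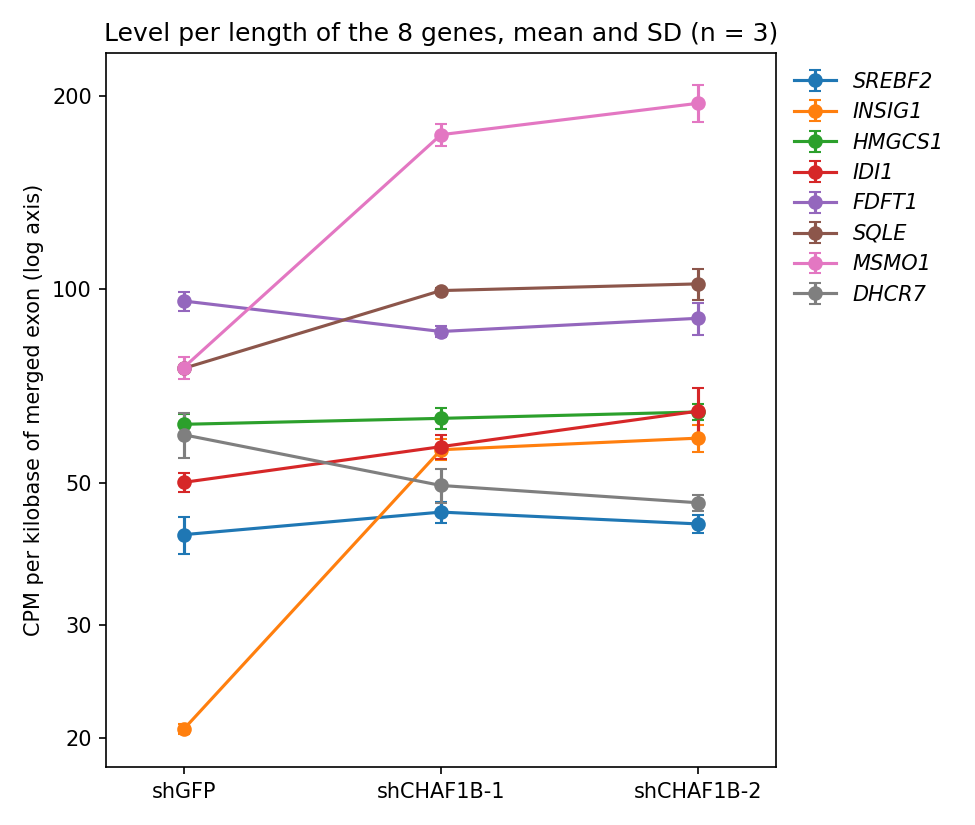
Mean CPM per kilobase of merged exon (log axis) for the 8 genes in each hairpin group, with the SD of 3 libraries as error bars; lines join the same gene. INSIG1 goes from 20.6 in shGFP to 56.3 and 58.7, MSMO1 from 75.5 to 174 and 195, and SREBF2 stays between 41.5 and 45.0.

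For each gene, the 3 other tested genes with the most similar profile were found by Pearson's r of log2 CPM over the 9 libraries. The libraries share 1 control group and fall into control and knockdown, so r mostly records the size and regularity of that difference, and it is given as a description. For INSIG1 these were TSC22D1 (r = 0.9997), SERPINE2 and ANTXR2, and 2684 genes exceeded 0.9. For MSMO1 they were MPZL3 (0.9987), UAP1 and ELL2, with 2613 genes above 0.9, and for SQLE SAR1A (0.9981), PLXDC2 and TM9SF2, with 2462. IDI1 was most like TXNDC9 (0.9953), RAB3GAP1 and GNAI3, with 399 above 0.9. DHCR7 was most like DHX30 (0.9928), SCAF1 and MRPL55, with 679, and FDFT1 like TMEM9B (0.9897), PSMA5 and AC097263.1, with 357. SREBF2, with little change, had TTC22 (0.9808), SBF1 and DMWD and 78 genes above 0.9. HMGCS1 had AC007016.1 (0.9354), MNAT1 and PPIAP66 and only 8. Among the 8 genes themselves INSIG1, SQLE and MSMO1 had pairwise r of 0.99, and DHCR7 had -0.91 with MSMO1.

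The remaining enzymes of the pathway moved in both directions. Of the 15 others from acetyl-CoA to cholesterol, 3 rose and 6 fell under shCHAF1B-1, and 4 rose and 6 fell under shCHAF1B-2. Their median log2 fold changes were -0.067 and -0.13. Among all tested genes 27.9% rose and 25.2% fell under shCHAF1B-1, and 26.7% rose and 24.6% fell under shCHAF1B-2. These shares are the background for the counts of every list below as well, since passing the test was common among all genes. The counts were 3 and 5 under shCHAF1B-1 (median -0.02) and 3 and 6 under shCHAF1B-2 without shCHAF1B-1 replicate 3. SC5D, the desaturase that acts just before DHCR7, was at 84.9 to 93.7 CPM in shGFP and at 125 to 143 CPM in the knockdowns. It rose by log2 fold changes of 0.57 (adjusted p = 9.6e-07) and 0.64 (adjusted p = 2.9e-07) under shCHAF1B-1 and shCHAF1B-2. NSDHL, which acts after MSMO1 on the same methyl groups, passed under shCHAF1B-2 at 0.16 (adjusted p = 0.048). That call was lost under most alternatives, among them without shGFP replicate 1 or 3, shCHAF1B-1 replicate 2 or 3, or shCHAF1B-2 replicate 1 or 3, with values of 0.10 to 0.17. Under shCHAF1B-1 NSDHL was at 0.15 (adjusted p = 0.057) and passed without shGFP replicate 2 or shCHAF1B-2 replicate 2 or 3.

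The falling enzymes included the pair that can reduce the same double bond of the sterol ring. LBR, which also anchors chromatin at the nuclear envelope, went from 174 to 187 CPM in shGFP to 118 to 128 CPM in the knockdowns, with log2 fold changes of -0.56 and -0.49. TM7SF2 fell by 0.44 and 0.54 on the log2 scale. ACAT2, a thiolase that makes the first intermediate, fell by 0.54 and 0.43. FDPS, which makes farnesyl diphosphate, fell by 0.20 and 0.15, and HSD17B7, an enzyme of methyl group removal with MSMO1 and NSDHL, by 0.32 and 0.41. ACAT2, FDPS and HSD17B7 were chosen after their values were seen. PMVK under shCHAF1B-1 (-0.23, adjusted p = 0.037) and MVD under shCHAF1B-2 (-0.22, adjusted p = 0.026), the kinase and the decarboxylase of the mevalonate steps, also fell. The PMVK call was lost without shGFP replicate 1 or 2 or shCHAF1B-1 replicate 2 or 3, and the MVD call without shGFP replicate 1 or 2 or shCHAF1B-2 replicate 1. Genes of one enzyme complex thus had opposite signs: MSMO1 rose and HSD17B7 fell. CYP51A1 did not pass, at -0.05 and -0.13. By name, GENCODE lists 8 pseudogenes of FDPS, 3 of CYP51A1, 2 of HSD17B7 and 0 of the 8 genes. Whether reads were shared with them was not tested, so the values of FDPS, CYP51A1 and HSD17B7 are uncertain.

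**Figure D3:**
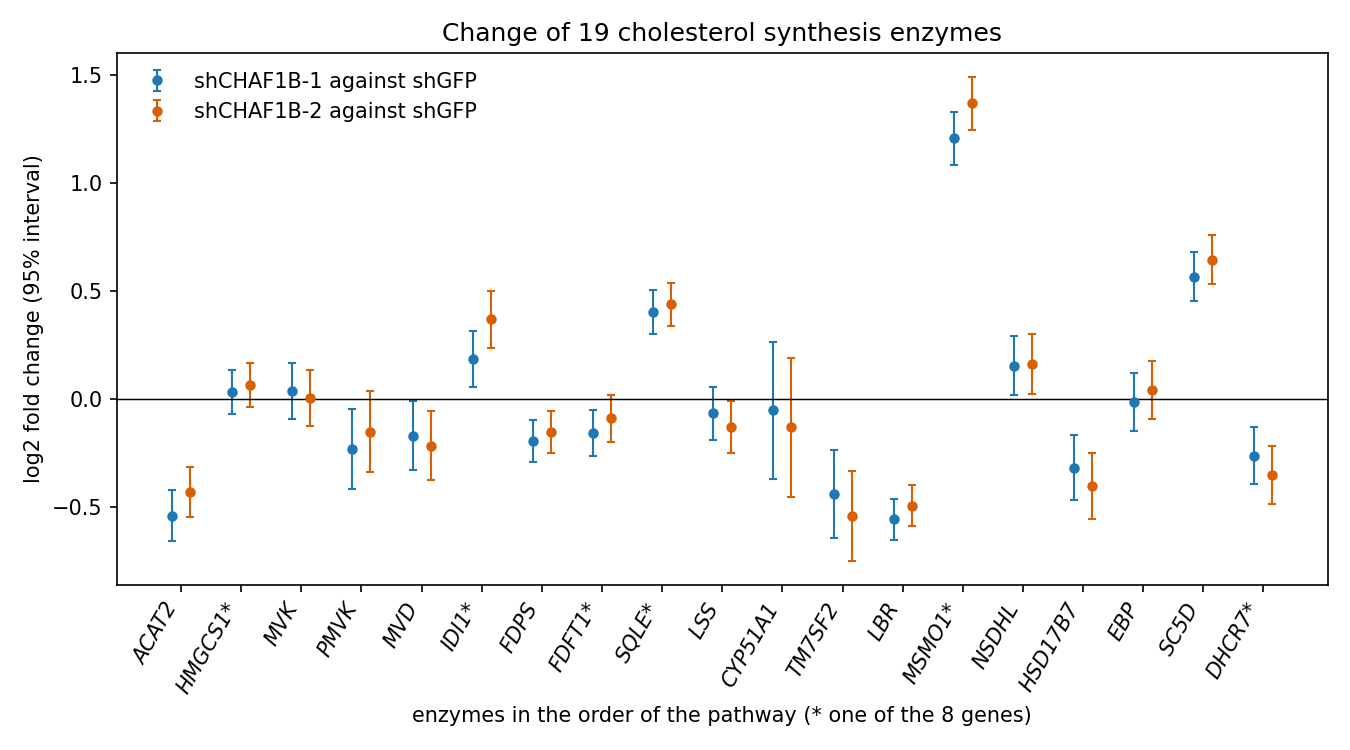
Log2 fold change of 19 cholesterol synthesis enzymes against shGFP, in pathway order from left to right, for each hairpin with 95% intervals (stars mark enzymes among the 8 genes; SREBF2 and INSIG1 are not enzymes). MSMO1, at 1.21 and 1.37, stands above SC5D, at 0.57 and 0.64, while ACAT2, TM7SF2, LBR, HSD17B7 and DHCR7 lie below 0.

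Among 11 genes that carry, cut, retain or degrade the sterol-sensing proteins, 4 rose and 0 fell under shCHAF1B-1, and 6 rose and 1 fell under shCHAF1B-2. The medians were 0.075 and 0.168. Without shCHAF1B-1 replicate 3, 3 rose and 0 fell, and 6 rose and 0 fell. SEC24D, a coat protein of the vesicles that leave the endoplasmic reticulum, rose by 0.81 and 0.88. RNF145, a ubiquitin ligase of sterol-regulated degradation, rose by 0.45 and 0.50. RNF139, another ligase of this kind, rose by 0.15 (adjusted p = 0.036) and 0.25 (adjusted p = 0.0018). Its shCHAF1B-1 call was lost without shGFP replicate 1 or 2, any 1 of the shCHAF1B-1 libraries, or shCHAF1B-2 replicate 1. INSIG2, the second INSIG gene, had 0.07 (adjusted p = 0.43) and 0.29 (adjusted p = 0.0035), and its hairpin difference of 0.22 did not pass (adjusted p = 0.42). The protease gene MBTPS2 rose under shCHAF1B-2 by 0.17 (adjusted p = 0.044), where the escort SCAP fell by 0.17 (adjusted p = 0.047). The MBTPS2 call was lost without shGFP replicate 1 or 2 or shCHAF1B-2 replicate 1 or 3, and the SCAP call was lost without any 1 of 7 libraries, with values down to -0.10 without shGFP replicate 2. SREBF1, the sister gene of SREBF2, did not pass, at 0.05 and -0.10.

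Of the 13 measured genes of sterol uptake and movement between membranes, 8 rose and 4 fell under shCHAF1B-1, and 7 rose and 3 fell under shCHAF1B-2, with medians of 0.206 and 0.147. These counts were 8 and 3, and 7 and 3, without shCHAF1B-1 replicate 3. GRAMD1B, which moves sterol from the plasma membrane, rose most, by 1.64 and 1.59, from 5.58 to 6.20 CPM up to 17.2 to 18.9 CPM. NPC1, the exporter of cholesterol from lysosomes, rose by 0.70 and 0.67, and STARD4, a soluble sterol carrier, by 0.62 and 0.70. OSBPL5, a lipid transfer protein, had log2 fold changes of -0.93 and -1.04. The other genes that fell were TMEM97 (-0.62 and -0.54), SCARB1 (-0.14 and -0.20) and, under shCHAF1B-1, the lysosomal lipase LIPA (-0.20, adjusted p = 0.003). LIPA passed under shCHAF1B-2 too without replicate 3 of that group (-0.15). SCARB1 lost its shCHAF1B-1 call without shGFP replicate 1 or 2 or shCHAF1B-1 replicate 2 or 3.

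Of 12 genes of sterol export, storage and oxysterol response, 8 passed the filter on low counts. Under each hairpin 4 rose (SOAT1, SMPDL3A, ABCG1 and APOE) and 1 fell (NR1H3), with medians of 0.56 and 0.389. Without shCHAF1B-1 replicate 3, MYLIP also fell under both hairpins and the medians were 0.349 and 0.392. SOAT1, which esterifies cholesterol for storage, went from 33.9 to 35.6 CPM in shGFP to 79.4 to 88.9 CPM, by 1.23 and 1.34 on the log2 scale. SMPDL3A rose by 0.77 and 0.85, and the exporter ABCG1 by 0.35 and 0.37. APOE changed by 2.01 and 1.87 but had only 4 to 10 counts in shGFP and 20 to 35 in the knockdowns. NR1H3, the oxysterol receptor LXR alpha, fell by 0.76 and 0.69. The exporter ABCA1 did not pass and had 58 counts in shCHAF1B-1 replicate 3, the library with lymphocyte markers, against 6 to 18 elsewhere. Its log2 fold change under shCHAF1B-1 was 1.43 (adjusted p = 0.06) with that library and 0.26 without it, and it passed without replicate 1 or 2 of that group.

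Among 14 genes of fatty acid synthesis, mostly targets of SREBP1, 6 rose and 3 fell under shCHAF1B-1 and 6 rose and 4 fell under shCHAF1B-2, with medians of 0.027 and 0.104. Without shCHAF1B-1 replicate 3 the counts were 5 and 3, and 6 and 4. ACSS2, which makes acetyl-CoA from acetate, rose by 0.42 and 0.36, and ACSL3, which activates fatty acids, by 0.24 and 0.31. The desaturase FADS2 fell by 0.53 and 0.51 and the phosphatase LPIN1 by 0.28 and 0.31, GPAM also fell under both hairpins, and FASN fell under shCHAF1B-2. FASN also passed under shCHAF1B-1 without shGFP replicate 3, shCHAF1B-1 replicate 1 or shCHAF1B-2 replicate 2. Of 11 genes of other branches of the mevalonate pathway, 4 rose and 4 fell under shCHAF1B-1, and 4 rose and 3 fell under shCHAF1B-2, with medians of 0.044 and 0.138. Without shCHAF1B-1 replicate 3 the counts were 3 and 3, and 4 and 3. DHDDS, of dolichol synthesis, rose by 0.53 and 0.41, as did its partner NUS1, at 0.22 and 0.32, and GGPS1, at 0.19 and 0.46, with RCE1 under shCHAF1B-1 and FNTA under shCHAF1B-2. COQ2 and PDSS1, of ubiquinone synthesis, fell by 0.75 and 0.65 and by 0.34 and 0.26, and FNTB, a subunit of the farnesyl transferase, by 0.53 and 0.43. PDSS2 fell under shCHAF1B-1. The shCHAF1B-1 calls of GGPS1 and PDSS2 were lost without any 1 of the shGFP or shCHAF1B-1 libraries or shCHAF1B-2 replicate 1. RCE1 passed under shCHAF1B-2 without shGFP replicate 2 or shCHAF1B-2 replicate 1.

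**Figure D4:**
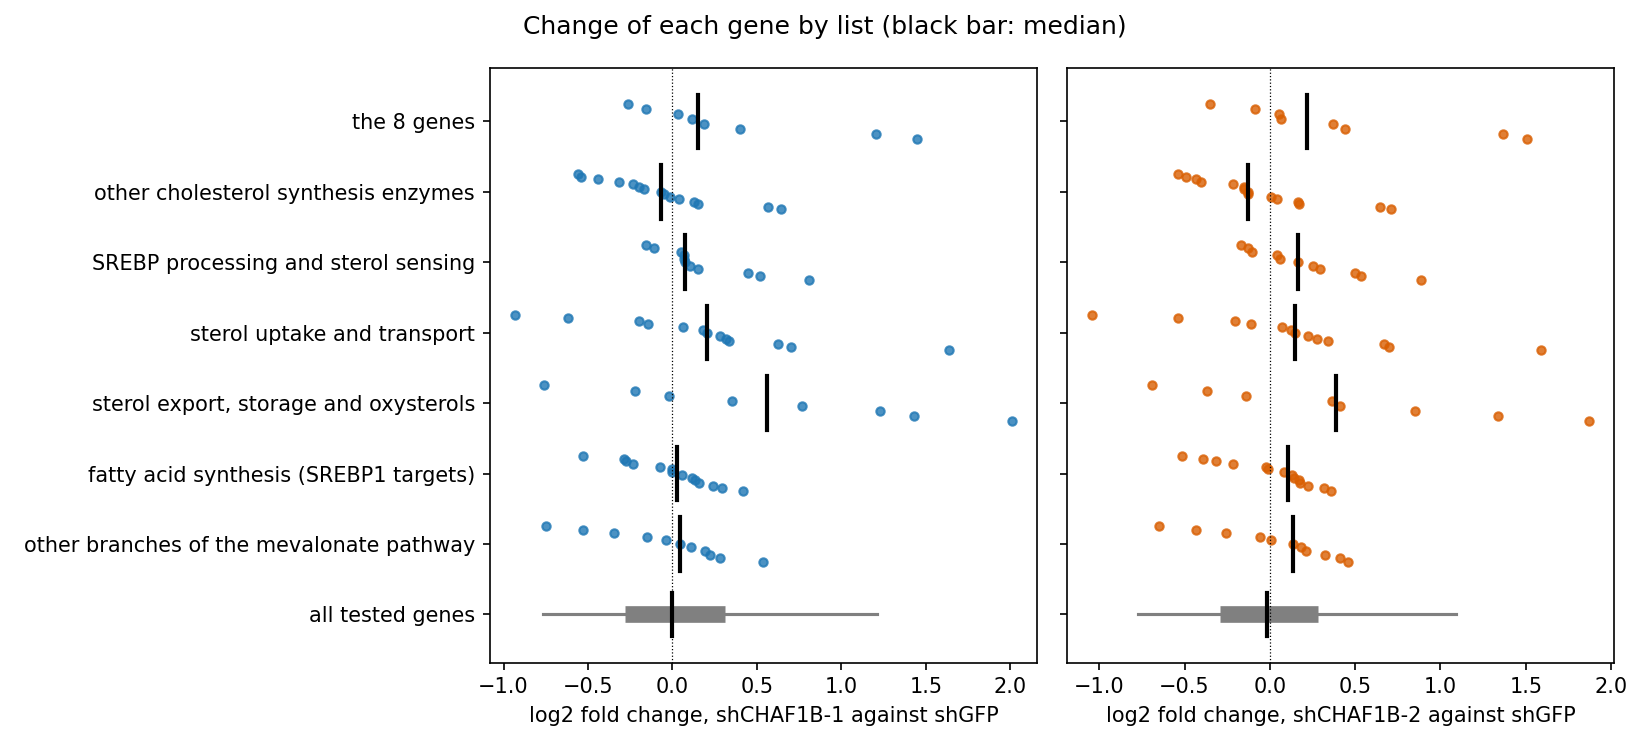
Log2 fold change of each tested gene (points) in the 8 genes and in 6 further lists, for each hairpin against shGFP, with the list median as a black bar; the lowest row gives all tested genes as a grey box (quartiles) and line. The median of the 8 genes is 0.151 and 0.216, that of the other synthesis enzymes -0.067 and -0.13, and every list holds genes on both sides of 0.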

How the data were processed

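The table the authors deposited holds raw counts, integers for each gene in each library, without normalization. Tools listed in the submitters' processing notes are HTSeq 0.8.0, DESeq2 1.18.1 and STAR 2.5.3a, beside the genome builds mm10 and hg38; their roles are not given. Per the labels' protocols, polyA RNA was prepared with the TruSeq RNA version 2 kit, which does not mark the strand. Reads of a gene and of an overlapping antisense gene therefore cannot be told apart. Whether reads in exon bases shared with such a gene were counted for either gene was not tested. The lowest total of a gene in the table was 7 counts. Of its identifiers, 26149 matched GENCODE release 29 without the version (25293 with it) and 37 did not.

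Libraries were grouped by the hairpin in the labels. Genes were filtered with filterByExpr (minimum count 10, minimum total 15, proportion 0.7), scaled with TMM and tested with edgeR 4.0.16 in R 4.3.3 (quasi-likelihood test, 1 fit of all 9 libraries, Benjamini-Hochberg adjustment over 16235 genes, threshold 0.05). CPM are TMM-scaled. The steps were tested on simulated counts for the comparison of shCHAF1B-1 with shGFP (16188 genes). There, 78% of the genes set to change 1.5-fold and 84% of those set to change 2-fold were called. A further 14 genes that were not set to change were called too. Only 50 genes were changed at each of 4 fold sizes, far fewer than the 8632 called in the data, so these shares need not hold there.

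The 8 genes, the lists and the tests were chosen with earlier results of these data known. Named genes were the 8, CHAF1B, up to 4 per list called the same way under both hairpins with the largest smaller change, genes that make up a count of 5 or fewer, and for likeness 3 genes each. Some listed genes are counted in their lists and not reported here. Motifs were searched in RefSeq windows with Python 3.11.15. Alternatives were RLE and upper-quartile scaling, DESeq2 1.42.0, limma-voom (limma 3.58.1), no filter, 1 CPM in 3 libraries, only the groups compared, a replicate block, stricter thresholds and leaving out each library.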

Additional observations from a re-analysis of the deposited data

How the results depend on the processing

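Across the alternatives, the direction of every change that passed for the 8 genes was kept. Of 456 values of the 8 genes under alternatives, 439 kept their side of the threshold, 14 no longer passed and 3 newly passed. These values include those of the difference between the hairpins, where 0 of the 8 genes passed under any alternative. The 14 and the 3 thus all belong to the comparisons with shGFP. The counts of genes called stayed within 1.5 times of the main count except when a change of at least 2-fold was required. That threshold left 1372 genes under shCHAF1B-1 and 1275 under shCHAF1B-2, 2 of the 8 genes under each hairpin, and 0 of the 15 other synthesis enzymes. Between the hairpins, DESeq2 called 1 gene where edgeR called 0. With each library left out in turn, 7668 to 9042 genes were called under shCHAF1B-1 and 7281 to 8444 under shCHAF1B-2, and 5 to 6 of the 8 genes under each. Upper-quartile scaling moved the median over all genes to -0.03 and -0.049. Replicate numbers did not pair the libraries: correlations of deviations between libraries with the same number lay between -0.14 and 0.1, and 0 of the 9 libraries correlated best with its own number. With the replicate number as a block, 8305 genes were called under shCHAF1B-1, 7981 under shCHAF1B-2 and 0 between the hairpins, with 6, 5 and 0 of the 8 genes and 7, 9 and 0 of the other synthesis enzymes. The cause of the DESeq2 difference was not tested, and the 2-fold threshold calls fewer genes by its construction. The smallest changes called among the 8 genes, those of IDI1 and FDFT1 under shCHAF1B-1, lost their calls when single libraries were left out, as given above.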
